A study of Mus musculus with 9 samples.

Results

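Hox genes encode homeodomain transcription factors that give cells of the body axis their position. In the mouse they lie in 4 clusters, and the 39 protein-coding members, defined by their symbols (Hoxa, Hoxb, Hoxc or Hoxd and a number), were followed here among the 55401 annotated genes of a mouse glioma line. Within a cluster, genes at the 3′ end (low paralog numbers) are switched on earlier and further forward in the embryo than genes at the 5′ end, and the forebrain and midbrain lack Hox expression while the hindbrain and spinal cord have it. Polycomb complexes keep silent Hox genes closed, Trithorax and MLL complexes keep active ones open, retinoic acid acts on the 3′ genes, and Hox proteins bind DNA together with TALE cofactors of the Pbx and Meis families.

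The samples came from NP53, which the labels give both as a diffuse midline glioma line and as a diffuse intrinsic pontine glioma line (the pons is part of the hindbrain). Poly(A) RNA was sequenced from 9 libraries: 3 of the group Gcontrol, labelled wild type, and 3 each of the groups G1C7 and G2C9, both labelled as knockout of TIM-3, the receptor encoded by Havcr2. All 3 groups grew in DMEM with fetal bovine serum and antibiotics, and the labels name no other treatment. The labels do not say whether G1C7 and G2C9 are single clones, how or where the gene was edited, or whether libraries of a group were grown as cultures of their own. The p-values therefore measure only how these libraries spread, which may be technical.

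Each library held 50110129 to 56035382 reads in genes, and both mates of a pair were counted, so that 6 reads stand for 3 read pairs. A library of G1C7 (replicate 2) and a library of G2C9 (replicate 3) lay far from the rest of their groups: the chi-square per degree of freedom over genes was 85.2 to 142 for pairs with one of them and 2.35 to 6.84 for the other pairs within a group. Levels of the acute phase gene Hp moved with them, at 205 and 493 CPM (counts scaled to library size) against at most 21.5 CPM in the other 7 libraries; their part in the Hox results was not tested, and counts without both libraries are given below. The level of Havcr2 ranged from 1.06 to 1.37 CPM over the Gcontrol libraries, from 0.109 to 1.21 over G1C7 and from 0.547 to 0.772 over G2C9, and it did not pass the test in either comparison with Gcontrol (edgeR, adjusted p = 0.586 and 0.448), so reads over the whole gene did not check the labels; without G1C7 replicate 2 the G2C9 value passed (-0.85, adjusted p = 0.0323). Of 17 glioma and glial progenitor markers, 3 had 0 reads in all 9 libraries, Olig1 and Olig2 among them, whereas Sox2 was at 69.5, 44.6 and 34.7 CPM, Nes at 117, 152 and 96.1 CPM and Pdgfra at 248, 385 and 448 CPM in Gcontrol, G1C7 and G2C9. Col1a1, a collagen gene of fibroblasts and mesenchymal cells, was at 2712 CPM in Gcontrol. Of markers of other cells, Cd3e (T cells) had 0 reads, and Ptprc (blood cells), Rbfox3 (neurons) and Epcam (epithelium) had 12, 8 and 34 reads over the 9 libraries, while the macrophage markers Cd68 and Csf1r had 1634 and 347 and the neuron markers Tubb3 and Syt1 had 7211 and 682. Tubb3 lay at 19.1 CPM in Gcontrol and was lower in G2C9 (log2 fold change -1.06, edgeR adjusted p = 0.0215), a call lost without G2C9 replicate 1 or 2 or any Gcontrol library (0.0704 to 0.0802). Csf1r lay at 1.12 CPM in Gcontrol and was lower in G1C7 (-1.45, adjusted p = 0.0138). The part of these markers in the Hox results was not tested. Fewer cells of a type and less RNA per cell cannot be told apart in such bulk libraries.

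The Hox reads of this line came almost wholly from cluster A. Of the 25413 reads in the 39 genes, 25373 (99.8%) lay in cluster A, 21 in cluster B, 10 in cluster C and 9 in cluster D. Cluster A lies on the minus strand of chromosome 6 (GRCm38), and the others lie on chromosome 11 (B), chromosome 15 (C) and chromosome 2 (D). Within cluster A the reads dropped sharply between Hoxa7 and Hoxa9: Hoxa2 to Hoxa7 each had 47 reads or more in every library, and Hoxa9 had 4 at most. Beyond Hoxa9, Hoxa11 had none, Hoxa10 had 18 at most and Hoxa13 had 2 to 33 reads in a library. The Hoxa7 and Hoxa9 gene models lie 1245 bp apart.

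The promoters on either side of this drop, together with that of Hoxa5, which in G2C9 had the largest change after Hoxa7 among the genes 3′ of the drop, are shown from RefSeq (GRCm38.p6), each 250 bases before to 50 after a start, with CG dinucleotides, the sites of DNA methylation, in capitals. They lie on the minus strand at chr6:52204538-52204837 (Hoxa5), chr6:52218524-52218823 (Hoxa7) and chr6:52227321-52227620 (Hoxa9).
Hoxa5: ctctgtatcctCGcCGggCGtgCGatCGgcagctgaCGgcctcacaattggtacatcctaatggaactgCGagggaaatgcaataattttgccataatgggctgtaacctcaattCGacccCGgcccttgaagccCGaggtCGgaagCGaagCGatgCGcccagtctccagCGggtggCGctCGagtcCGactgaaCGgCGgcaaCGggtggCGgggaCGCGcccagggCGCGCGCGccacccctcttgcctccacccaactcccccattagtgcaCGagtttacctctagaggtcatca
Hoxa7: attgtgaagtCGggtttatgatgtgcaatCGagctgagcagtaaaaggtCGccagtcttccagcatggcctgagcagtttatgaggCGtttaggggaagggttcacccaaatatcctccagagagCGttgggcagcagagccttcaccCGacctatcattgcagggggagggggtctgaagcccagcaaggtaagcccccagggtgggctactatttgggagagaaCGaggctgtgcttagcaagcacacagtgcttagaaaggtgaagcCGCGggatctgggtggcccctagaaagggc
Hoxa9: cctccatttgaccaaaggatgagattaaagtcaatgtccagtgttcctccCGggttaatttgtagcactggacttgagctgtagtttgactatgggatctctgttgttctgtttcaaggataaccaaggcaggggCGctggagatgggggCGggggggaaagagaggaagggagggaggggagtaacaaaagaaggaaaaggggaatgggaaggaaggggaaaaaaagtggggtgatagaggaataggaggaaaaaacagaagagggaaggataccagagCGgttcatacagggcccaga
The Hoxa5 window held 29 CG dinucleotides, the Hoxa7 window 9 and the Hoxa9 window 4, beside a median of 7 over 32851 mouse promoters of the same length. The RefSeq table matched 22 of the 39 genes with 24 promoters; their median was 14.5 CG dinucleotides, and that of the 10 cluster A promoters (9 genes) was 17.5. On both strands, a Pbx-Hox site (TGATTNAT) was found in 2 of the 24 Hox promoters and in 3.22% of all promoters, the CTCF core motif in 1 and 3.43%, a TATA box (TATAAA) in 4 and 13.6%, and a homeodomain core (TAATTA) in 2 and 5.29%. The cluster A matches were the Pbx-Hox letters at Hoxa2, the CTCF letters at Hoxa11 and the TATA box at the second Hoxa10 start. A match is a run of letters, and nothing was measured of binding or methylation at these windows.

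Of the 39 genes, 21 (53.8%) had 0 reads in all 9 libraries, beside 5205 of 21897 protein-coding genes (23.8%). These silent members were Hoxa11 in cluster A, 6 of 10 genes in cluster B (Hoxb1, Hoxb2, Hoxb4, Hoxb7, Hoxb8 and Hoxb13), 7 of 9 in cluster C (Hoxc4, Hoxc5, Hoxc8, Hoxc10, Hoxc11, Hoxc12 and Hoxc13) and 7 of 9 in cluster D (Hoxd1, Hoxd3, Hoxd9, Hoxd10, Hoxd11, Hoxd12 and Hoxd13). A count of 0 over the 3 libraries of a group allows up to 3 read pairs, or 0.0364 CPM for Gcontrol, 0.0368 CPM for G1C7 and 0.0398 CPM for G2C9, for counting error only. Reads in exon bases shared with other genes were not counted, so 0 reads covers only the bases unique to a gene. That share was 37.2% for Hoxd3, 65.0% for Hoxa11 and 72.7% for Hoxb2, and 89.2% or more for the other silent members. Counting as silent every gene with under 6 reads in each group gave 27 of the 39.

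The few reads outside cluster A fell in 8 genes, none with more than 4 reads in a library. In cluster B, Hoxb9 was read in Gcontrol alone (2, 0 and 4 reads), and Hoxb6 in G1C7 (0, 4 and 4) and in the third Gcontrol library (2); Hoxb3 had 4 reads and Hoxb5 had 1 read in G1C7 replicate 2 alone. In cluster C, Hoxc9 had 0, 2 and 4 reads in Gcontrol and 2 in G1C7 replicate 2, and Hoxc6 had 2 in G1C7 replicate 3. In cluster D, Hoxd8 had 2, 2 and 0 reads in Gcontrol and 4 in G2C9 replicate 2, and Hoxd4 had 1 read in G2C9 replicate 1. None of these genes passed the filter on low counts, and no difference between groups was detectable for them at this depth. Hoxa9, at 4, 0 and 0 reads in G1C7, 0, 0 and 2 in G2C9 and 0, 2 and 0 in Gcontrol, was likewise not tested.

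**Figure D1:**
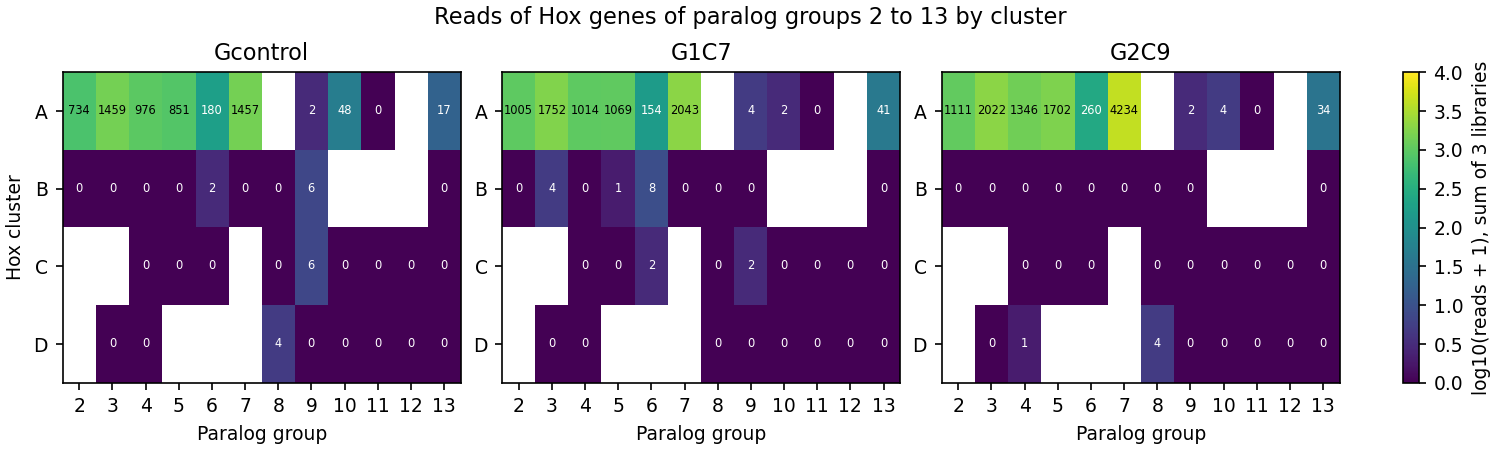
Reads of each Hox gene of paralog groups 2 to 13, summed over the 3 libraries of a group (number and colour, log10 of reads + 1), by cluster (rows) and paralog group (columns); white cells have no gene. Cluster A carries the reads from Hoxa2 to Hoxa7, and no gene of clusters B, C or D exceeds 8 reads in a group.

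The level of the active genes was compared between genes only per kilobase of exon (CPM per kb over the exon length of the deposited files). In Gcontrol, Hoxa4 was highest at 3.72 ± 0.358 CPM per kb (SD, n = 3), followed by Hoxa7 at 3.07 ± 0.0916, Hoxa5 at 2.75 ± 0.437, Hoxa2 at 2.51 ± 0.312, Hoxa3 at 1.47 ± 0.0922 and Hoxa6 at 1.25 ± 0.0568. Hoxa7, Hoxa5 and Hoxa2 overlapped with their neighbours in that order, and the other steps down to Hoxa10 had no overlap of libraries. Hoxa10 and Hoxa13 lay at 0.0892 ± 0.0132 and 0.0420 ± 0.0414 CPM per kb and overlapped. In G2C9 the order was led by Hoxa7 at 9.77 ± 0.234 CPM per kb with no overlap with Hoxa5 at 6.01 ± 0.735, and Hoxa5 overlapped with Hoxa4 at 5.61 ± 0.211. In G1C7, Hoxa7 at 4.36 ± 0.711 CPM per kb overlapped with Hoxa4 at 3.90 ± 0.186.

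Several of these genes share exon bases with other genes, and reads in shared bases were not counted, so these levels are uncertain. The share of exon bases unique to the gene was 72.9% for Hoxa3, 79.6% for Hoxa7, 84.0% for Hoxa4 and 85.0% for Hoxa2, and Hoxa5, Hoxa6, Hoxa10 and Hoxa13 were wholly unique. Per kb of unique exon, Hoxa4 (4.43) and Hoxa7 (3.86) overlapped in Gcontrol. The strand was not used in counting, so reads of a Hox gene and of its antisense partners cannot be told apart in shared bases. Across the drop, Hoxa7 exceeded Hoxa9 per kb of exon by 1413-fold in Gcontrol (95% counting interval 253 to 55903), 991-fold in G1C7 (274 to 8194) and 4107-fold in G2C9 (736 to 162309). The intervals overlap, and the drop was present in all 3 groups.

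**Figure D2:**
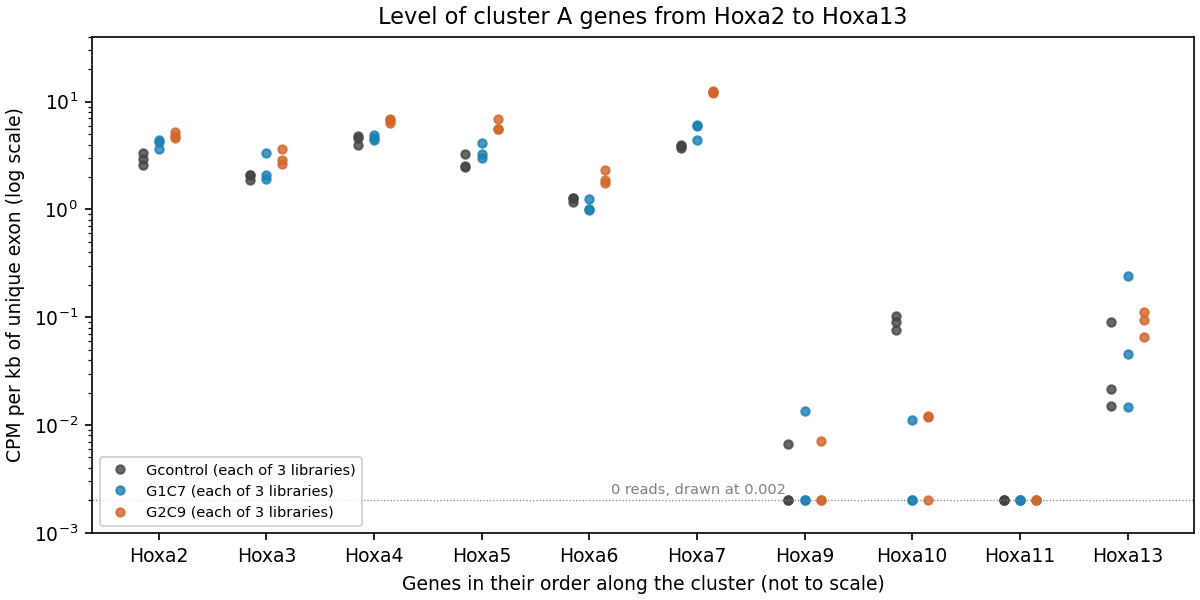
CPM per kb of unique exon (log axis) of the cluster A genes from Hoxa2 to Hoxa13 in their order, each point 1 of 3 libraries per group; libraries at 0 reads are drawn at 0.002. Hoxa2 to Hoxa7 lie together near 1 or above, and Hoxa9 to Hoxa13 lie below.

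Of the 39 members, 9 passed the filter on low counts, all in cluster A, and were tested in each derivative against Gcontrol; both comparisons share the same 3 Gcontrol libraries. Hoxa10 passed that filter through its Gcontrol libraries alone, so counts over the 9 genes are a description. In G2C9 against Gcontrol, 5 of the 9 passed an adjusted p of 0.05 (Hoxa2, Hoxa4, Hoxa5 and Hoxa7 higher, Hoxa10 lower), where 13.5% of all tested genes did (6.25% higher and 7.22% lower). In G1C7 against Gcontrol, 2 of the 9 passed (Hoxa7 higher, Hoxa10 lower), where 17.5% of all tested genes did (8.77% higher and 8.73% lower). The median log2 fold change of the 9 genes was 0.66 in G2C9 and 0.28 in G1C7, and the median over all tested genes was 0.01 and 0.02. Without both libraries that stood apart, a choice made after seeing the data, 7 of the 9 passed in G2C9 and 3 in G1C7, where 53.0% and 54.3% of all genes passed. Groups did not overlap for 6 genes higher and 1 lower in G2C9 (all genes: 20.4% and 22.9%) and for 2 higher and 1 lower in G1C7 (21.0% and 22.1%).

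Hoxa7, the last gene before the drop and a regulator of trunk identity, had the largest rise. It had 491, 481 and 485 reads in Gcontrol, 739, 559 and 745 in G1C7 and 1413, 1346 and 1475 in G2C9. The 3 groups did not overlap, G2C9 being highest and Gcontrol lowest, and within G1C7 the second library was the lowest. In level this was 8.84 ± 0.264, 12.5 ± 2.05 and 28.1 ± 0.672 CPM (SD, n = 3). The log2 fold change was 1.67 ± 0.13 (SE) in G2C9 (edgeR, adjusted p = 0.000221) and 0.50 ± 0.13 in G1C7 (adjusted p = 0.0289). The G2C9 call held without each of the 9 libraries in turn. The G1C7 call was lost without any library other than G1C7 replicate 2 or G2C9 replicate 3 (adjusted p 0.0555 to 0.118, log2 fold change 0.43 to 0.52).

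Hoxa5, which acts in the patterning of the cervical and thoracic axis and of the lung, had 255, 331 and 265 reads in Gcontrol, 304, 427 and 338 in G1C7 and 533, 510 and 659 in G2C9. All G2C9 libraries lay above all others, and the G1C7 and Gcontrol libraries overlapped. In CPM, Hoxa5 averaged 11.3 ± 1.38 over the G2C9 libraries, 6.55 ± 1.09 over G1C7 and 5.17 ± 0.821 over Gcontrol. Hoxa5 rose by 1.13 ± 0.18 on the log2 scale in G2C9 (edgeR, adjusted p = 0.00522), without each library in turn too, and its value in G1C7 was 0.34 ± 0.18 (adjusted p = 0.240).

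Hoxa4, a regulator of cervical identity, had 330, 346 and 300 reads in Gcontrol, 317, 340 and 357 in G1C7 and 458, 450 and 438 in G2C9. The G2C9 libraries again lay above all others. Hoxa4 rose by 0.59 ± 0.13 on the log2 scale in G2C9 (edgeR, adjusted p = 0.0196) and had a value of 0.07 ± 0.13 in G1C7 (adjusted p = 0.767). The G2C9 call was lost without G2C9 replicate 1 or 2 or any Gcontrol library (adjusted p 0.0533 to 0.0943, log2 fold change 0.52 to 0.66). In G1C7 the sign turned without Gcontrol replicate 3, to -0.015.

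Hoxa2, a hindbrain gene needed for the identity of the second branchial arch, had 211, 271 and 252 reads in Gcontrol, 342, 299 and 364 in G1C7 and 353, 385 and 373 in G2C9. Both derivatives lay above Gcontrol with no overlap. Hoxa2 rose by 0.73 ± 0.16 on the log2 scale in G2C9 (edgeR, adjusted p = 0.0167), and its value in G1C7 was 0.47 ± 0.16 (adjusted p = 0.0724). The G2C9 call was lost without G2C9 replicate 1 or 2 or Gcontrol replicate 1 or 3 (adjusted p 0.0506 to 0.0945), and a G1C7 call appeared without G1C7 replicate 2 (log2 fold change 0.56, adjusted p = 0.0233).

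Hoxa3, which acts in the hindbrain and in thymus and parathyroid formation, had 493, 444 and 522 reads in Gcontrol, 492, 803 and 457 in G1C7 and 635, 571 and 816 in G2C9. The highest Hoxa3 counts were in the 2 libraries that stood apart, and all G2C9 libraries lay above Gcontrol. The log2 fold change of Hoxa3 was 0.60 ± 0.22 in G2C9 (edgeR, adjusted p = 0.118) and 0.28 ± 0.22 in G1C7 (adjusted p = 0.434). Leaving out G1C7 replicate 2 made the G2C9 value pass (adjusted p = 0.0117) and turned the G1C7 value to -0.0062.

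Hoxa6, between Hoxa5 and Hoxa7, had 61, 56 and 63 reads in Gcontrol, 47, 60 and 47 in G1C7 and 82, 100 and 78 in G2C9. The G2C9 libraries lay above the others, and the log2 fold change was -0.21 ± 0.22 in G1C7 (edgeR, adjusted p = 0.569) and 0.66 ± 0.22 in G2C9 (adjusted p = 0.0840). The G2C9 value passed once G1C7 replicate 2 was left out (adjusted p = 0.0409).

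**Figure D3:**
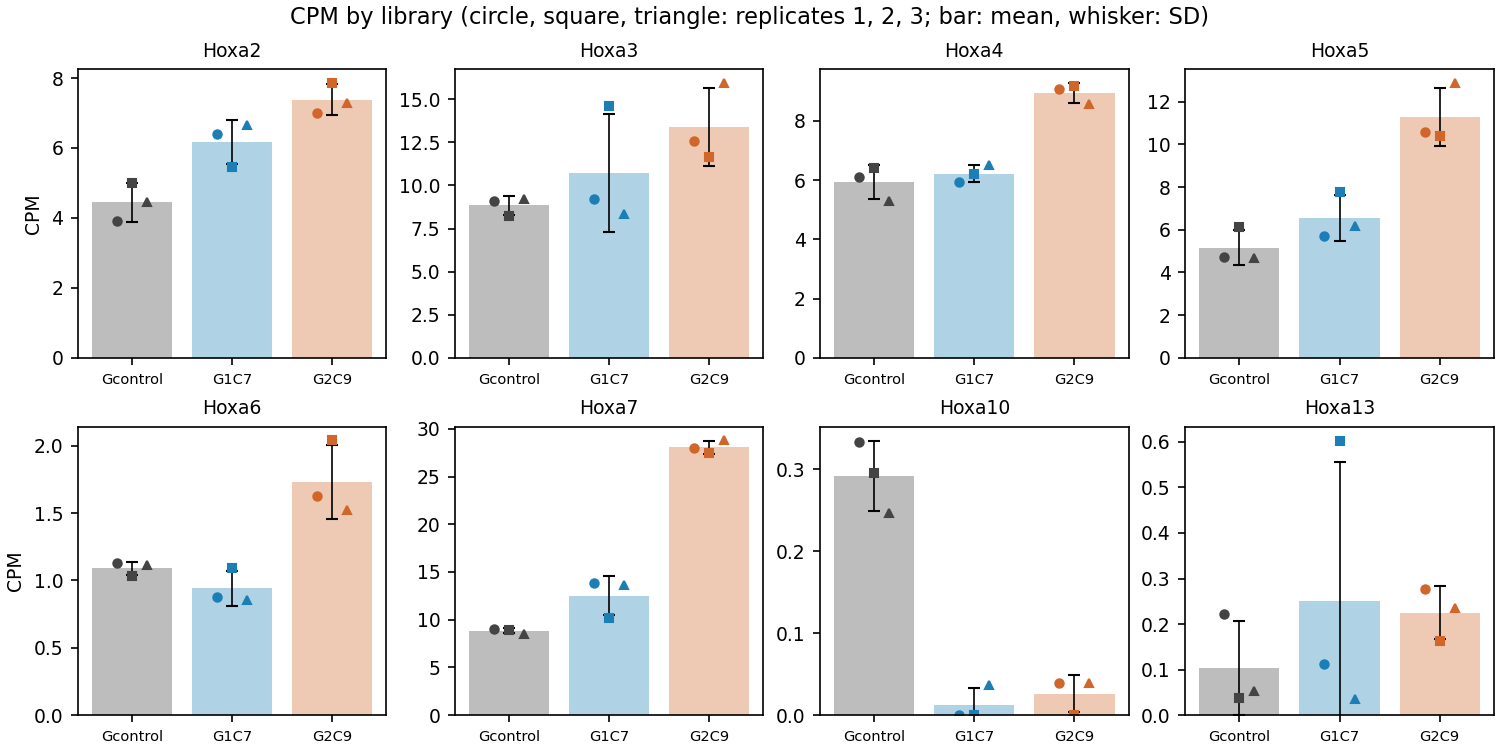
CPM of Hoxa2 to Hoxa7, Hoxa10 and Hoxa13 in each library (markers show replicates 1, 2 and 3), with the group mean (bar) and SD (whisker, ended at 0 where it would go below); axes start at 0 and differ between genes. Hoxa7 lies between 27.5 and 28.8 CPM in G2C9 and at most at 9.08 CPM in Gcontrol, and Hoxa10 has reads mainly in Gcontrol.

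Hoxa10, a gene of posterior trunk and reproductive tract patterning that lies beyond the drop, had its reads mainly in Gcontrol. It had 18, 16 and 14 reads in Gcontrol, 0, 0 and 2 in G1C7 and 2, 0 and 2 in G2C9. Gcontrol lay above both derivatives with no overlap, though even there the level was only 0.292 ± 0.043 CPM. In normalized reads, Gcontrol exceeded G1C7 by 23.7-fold (95% counting interval 3.87 to 976) and G2C9 by 10.97-fold (2.72 to 95.7). The edgeR values (adjusted p = 0.0137 in G1C7 and 0.0301 in G2C9) are a description here and no support for a difference, because Hoxa10 entered the test only through the group where it is high. The G1C7 value missed the threshold without G1C7 replicate 1 or any Gcontrol library (adjusted p 0.0507 to 0.0628), and the G2C9 value without any G2C9 or Gcontrol library (0.0547 to 0.120). Hoxa13, the most 5′ gene, known for limb and gut end patterning, had 12, 2 and 3 reads in Gcontrol, 6, 33 and 2 in G1C7 and 14, 8 and 12 in G2C9, with overlap and no call (adjusted p = 0.425 and 0.532); 33 of its 41 G1C7 reads came from replicate 2, without which its G1C7 log2 fold change turned from 1.25 to -0.46.

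**Figure D4:**
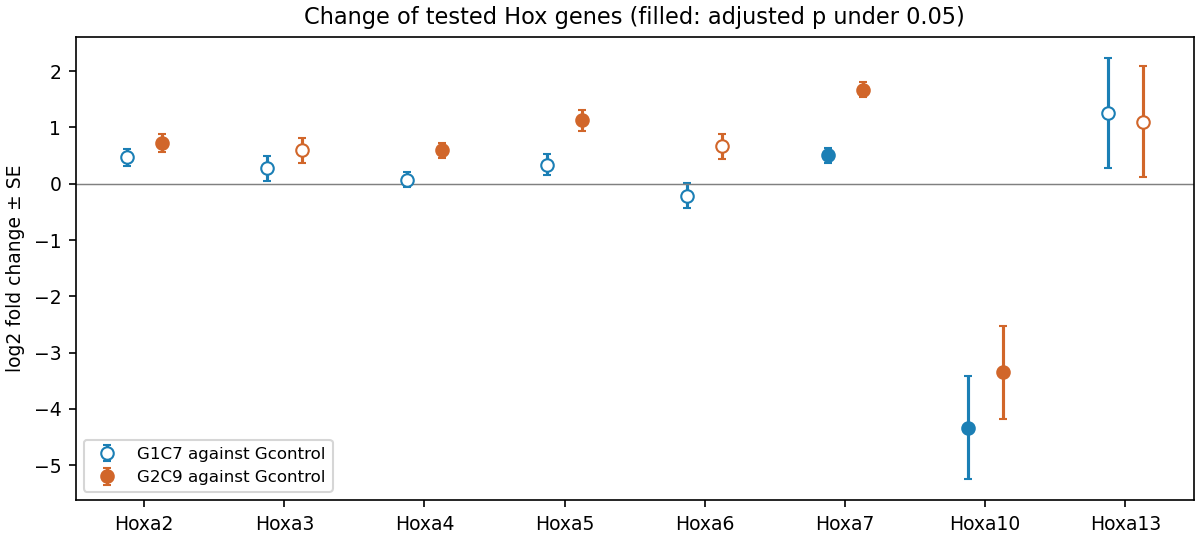
Log2 fold change ± SE of the tested Hox genes from Hoxa2 to Hoxa13 in G1C7 and G2C9 against the same Gcontrol libraries; filled points passed an adjusted p of 0.05 and open points did not. Hoxa7 has the largest rise that passed; Hoxa10 entered the test only through Gcontrol, so its points are a description.

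The derivatives were also compared with each other, which tests whether the Hox changes differ between them. Of the 9 genes, Hoxa7 alone passed, where 3.36% of all genes did (1.65% lower): it was lower in G1C7 than in G2C9 by a log2 fold change of -1.16 ± 0.13 (edgeR, adjusted p = 0.00239), also without each library in turn. Hoxa5 (-0.78 ± 0.18, adjusted p = 0.0570), Hoxa4 (-0.52 ± 0.13, adjusted p = 0.0747) and Hoxa6 (-0.87 ± 0.22, adjusted p = 0.0773) did not pass, and each passed without G1C7 replicate 2 (adjusted p = 0.0137, 0.0499 and 0.0369). Hoxa3 too passed without that library (-0.61, adjusted p = 0.0453), and without both libraries that stood apart 5 of the 9 genes passed, where 27.3% of all genes did. For 6 of the 9 genes every G1C7 library lay below every G2C9 library (8.50% of all genes).

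For the mean of both derivatives against Gcontrol, 4 of the 9 genes passed, where 20.0% of all genes did (9.32% higher and 10.6% lower): Hoxa2 (0.60), Hoxa5 (0.73) and Hoxa7 (1.09) were higher and Hoxa10 (-3.84) was lower on the log2 scale. The Hoxa2 and Hoxa5 calls were lost without Gcontrol replicate 1 or 3 (adjusted p 0.0800 to 0.106), and 6 of the 9 genes passed without both libraries that stood apart, where 58.5% of all genes did.

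The rise in G2C9 was uneven along the cluster. Summed over cluster A, G2C9 reached 75.3 ± 3.41 CPM, G1C7 47.0 ± 2.32 CPM and Gcontrol 38.6 ± 1.59 CPM (SD, n = 3). Hoxa7 made up 22.9 ± 0.846% of cluster A reads in Gcontrol, 26.9 ± 5.51% in G1C7 and 37.3 ± 0.840% in G2C9, and the 3 G1C7 libraries split into 30.2%, 20.5% and 29.9%. The summed level of 5 endothelial markers ranged from 1.02 to 1.35 CPM in Gcontrol, 1.55 to 1.72 in G1C7 and 3.80 to 4.75 in G2C9, most of it from Cdh5, the only 1 of 3 tested members called higher in G2C9. Pecam1 was at 0.187, 0.171 and 0.456 CPM and Kdr at 0.274, 0.258 and 0.184 CPM in Gcontrol, G1C7 and G2C9, neither called, and Cldn5 had 0 reads. Their part in the Hox results was not tested.

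Other genes inside and beside the cluster gave the setting. Inside cluster A the annotation lists 20 further genes, of which 11 had 0 reads and 7 were tested. Hotairm1, a noncoding RNA of the cluster, averaged 2.52 ± 0.335 CPM over the G2C9 libraries, 2.41 ± 0.725 over G1C7 and 2.39 ± 0.243 over Gcontrol (edgeR, adjusted p = 0.886 in G2C9 and 0.981 in G1C7). Hoxaas2, Hoxaas3, Gm15050, Gm27861 and 5730596B20Rik did not pass against Gcontrol either, though without G1C7 replicate 2 both Hoxaas2 (0.66, adjusted p = 0.0395) and 5730596B20Rik (1.33, adjusted p = 0.0473) passed in G2C9. Gm27477 passed only in G1C7 (-1.08, adjusted p = 0.0331; lost without any library other than G1C7 replicate 2 or G2C9 replicate 3, 0.0560 to 0.125). The median log2 fold change of these 7 genes was 0.01 in G1C7 and 0.30 in G2C9. In the other clusters, 8 of 9, 7 of 7 and 9 of 10 further genes of B, C and D had 0 reads.

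The nearest protein-coding neighbours of cluster A were Evx1, a homeobox gene with 0 reads in all libraries, and Skap2, an adaptor protein gene at 29.5 ± 2.58, 38.0 ± 13.6 and 40.8 ± 9.78 CPM in Gcontrol, G1C7 and G2C9 that did not pass (edgeR, adjusted p = 0.357 and 0.269) and was highest in the 2 libraries that stood apart. Within 5 Mb of cluster A on either side, 57 other genes were tested, with a median log2 fold change of 0.26 in G2C9 (9 higher and 3 lower; all genes 6.25% and 7.22%) and 0.01 in G1C7 (5 higher and 3 lower; all genes 8.77% and 8.73%). All tested genes of chromosome 6 had a median of 0.15 in G2C9 and 0.01 in G1C7. The shift of the chromosome moves with the Hox rise in G2C9, and its part in that rise was not tested.

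Genes known to act with or on Hox genes were read from lists; each count of called members below stands beside the 17.5% of all tested genes called in G1C7 and the 13.5% called in G2C9. TALE cofactors, 9 of 9 tested, had 2 higher and 2 lower in G1C7 and 1 higher and 1 lower in G2C9, with a median log2 fold change of 0.20 and 0.07. Meis3 fell from 4.75 CPM in Gcontrol to 0.839 in G1C7 (-2.50, edgeR, adjusted p = 0.00442) and to 0.0392 in G2C9, where 784 Gcontrol reads stood against 6 (119-fold, 95% counting interval 40.6 to 582). Pbx2 rose by 0.61 in G1C7 (edgeR, adjusted p = 0.00515). Meis1 rose from 6.95 CPM to 11.7 in G1C7 and 10.8 in G2C9 (0.75 and 0.63, adjusted p = 0.0160 and 0.0373); the G1C7 call was lost without Gcontrol replicate 1 or 2 (0.0618 to 0.0781), and the G2C9 call held only without G1C7 replicate 1 or 2.

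Polycomb repressive complex 2, which writes the mark of silent Hox clusters, had 0 of 12 members called in either comparison by edgeR (2 and 1 at an unadjusted p under 0.05; 1 and 1 by DESeq2, 0 and 0 by limma-voom), with medians of -0.01 in G1C7 and -0.05 in G2C9. Complex 1 had 2 of 21 called in G1C7 (1 higher, 1 lower; all genes 17.5%) and 3 in G2C9 (1 higher, 2 lower; all genes 13.5%). Trithorax and MLL members had 2 of 21 called higher in G1C7, among them Mllt3, an MLL partner (0.57, adjusted p = 0.00743), and 0 in G2C9 by edgeR, DESeq2 or limma-voom (2 at an unadjusted p under 0.05). CTCF and cohesin, which form chromatin boundaries, had 0 of 10 called in either by edgeR, DESeq2 or limma-voom (0 and 1 at an unadjusted p under 0.05 in edgeR). These list counts include the 2 libraries that stood apart, without which 54.3% (G1C7) and 53.0% (G2C9) of all genes were called. In G1C7 replicates 1 and 3 and G2C9 replicates 1 and 2, Ctcf was at 205 to 224 CPM. It was at 148 to 149 CPM in Gcontrol and at 102 and 141 CPM in G1C7 replicate 2 and G2C9 replicate 3. Rad21 was at 638 to 660 CPM in the former libraries and 627 to 661 CPM in Gcontrol. A count of 0 called does not show an unchanged list. None of the 6 Cdx and ParaHox genes, relatives of the Hox genes outside the clusters, and of the 2 Evx genes was tested, and 3 and 2 of them had 0 reads in all libraries.

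Of the retinoic acid genes, 12 of 18 were tested, with 2 higher and 3 lower in G1C7 and 1 higher and 4 lower in G2C9 (all genes called: 17.5% and 13.5%; medians -0.14 and -0.10). Crabp1, a retinoic acid binding protein, rose from 382 CPM to 931 in G1C7 and 700 in G2C9 (1.28 and 0.87, edgeR, adjusted p = 0.000304 and 0.00172). Rdh10, which makes the precursor retinal, fell in G1C7 (-0.45, adjusted p = 0.0363) and G2C9 (-0.89, adjusted p = 0.00249). Cyp26b1, which breaks retinoic acid down, fell in G1C7 (-1.88, adjusted p = 0.00125) and G2C9 (-0.81, adjusted p = 0.0442). Crabp2, a second retinoic acid binding protein, fell in both as well (-2.57 and -1.94, adjusted p = 0.0146 and 0.0456). Of these, the Rdh10 call in G1C7 was lost without G1C7 replicate 1, G2C9 replicate 1 or 2 or any Gcontrol library (adjusted p 0.0602 to 0.138). The Cyp26b1 call in G2C9 held only without G1C7 replicate 2 or G2C9 replicate 3 (otherwise 0.0536 to 0.158). The Crabp2 call was lost in G1C7 without G1C7 replicate 1 or Gcontrol replicate 2 or 3 (0.0512 to 0.0576), and in G2C9 without G1C7 replicate 1, G2C9 replicate 1 or 2 or any Gcontrol library (0.0556 to 0.149).

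Genes that mark positions along the neural axis were read in the same way, again beside 17.5% of all genes called in G1C7 and 13.5% in G2C9. Hindbrain genes had 6 of 14 tested, with 1 higher and 2 lower in G1C7 and 1 higher and 1 lower in G2C9. Midbrain and isthmus genes had 3 of 8 tested, all lower in both, with En1 at 5.81, 0.637 and 1.67 CPM in Gcontrol, G1C7 and G2C9 (-3.18 and -1.80, edgeR, adjusted p = 0.000514 and 0.00549). Forebrain genes had 7 of 11 tested, with 2 higher and 1 lower in G1C7 and 1 higher and 1 lower in G2C9. Lhx2 rose from 4.31 to 9.14 and 8.94 CPM (1.09 and 1.05, adjusted p = 0.00123 and 0.00160).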

How the data were processed

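Counts of reads per gene were deposited for each of 9 poly(A) libraries; the authors made them with featureCounts 1.6.0 on STAR 2.6.1c alignments to GRCm38, with FastQC 0.11.8, per the file headers and the submitters' processing notes. Options for pairs, strand, multi-mapping and overlapping genes were absent in the 9 file headers, so mates were counted singly (74.1% to 75.6% of counts from 2 to 50 were even), strand was ignored and reads in shared exon bases were dropped. Symbols came from a GENCODE reference for 55141 of 55401 genes.

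CPM used TMM factors (0.978 to 1.03) from edgeR 4.0.16 in R 4.3.3. filterByExpr kept 15659 genes, and 1 quasi-likelihood fit of all 9 libraries (6 residual degrees of freedom, biological coefficient of variation 0.248) gave 4 comparisons, with Benjamini-Hochberg adjustment over all genes and calls at 0.05. The fit was also run on simulated data, with the same relative spread for every gene and no libraries that stood apart. That run cannot show how the fit behaves with such libraries. Intervals (95%) and floors hold counting error alone.

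The members and the 20 lists were chosen with earlier results of these data known. Some genes are not reported here, though counts and medians include them. All other Hox genes are named; inside cluster A, tested genes; beside it, the nearest protein-coding gene; in other lists, up to 4 called members per comparison at 1 CPM or more, and set defining markers; of the list genes that qualified, those printed were picked with their values in view. Alternatives were RLE scaling, other filters (none, or at least 1 CPM in 3 libraries), DESeq2 1.42.0, limma-voom (limma 3.58.1), a replicate block, each library left out and, added after seeing the data, the 2 libraries that stood apart left out.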

Additional observations from a re-analysis of the deposited data

Results flagged for a closer look

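The change of Hoxa7 against Gcontrol differed between the derivatives by the test of the difference itself: the log2 fold change in G1C7 minus that in G2C9 was -1.16. Among the genes read from lists, the same test picked out further genes. The difference was 4.32 for the TALE cofactor Meis3, -1.07 for Cyp26b1, 0.46 for Rxrb, a retinoid receptor gene, -0.64 for Pcgf6 of Polycomb complex 1 and 0.55 for Dpy30 of the MLL complexes. It was -1.39 for En1, a positional gene. Among markers it was -1.71 for Cspg4 and 0.67 for Nes (glial progenitors), -0.40 for Twist1 (mesenchymal cells) and -1.66 for Cdh5 (endothelium). The differences of Hoxa7, Meis3, Cspg4, Nes and Cdh5 passed without each of the 9 libraries in turn; those of Cyp26b1, Pcgf6 and Dpy30 passed in 1 such fit, and those of Rxrb, En1 and Twist1 in 2.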

How the results depend on the processing

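The number of Hox genes called, 2 in G1C7, 5 in G2C9, 4 against the mean of both and 1 between the derivatives, moved by over 1.5 times in these settings (share of all genes called in parentheses). In G1C7 it was 1 with no filter (7.25%) and 1 with at least 1 CPM in 3 libraries (21.0%); in G2C9 it was 3 with no filter (5.51%); between the derivatives it was 4 with DESeq2 (8.09%), 2 with limma-voom (3.40%) and 5 without both libraries that stood apart (27.3%). Leaving out 1 library at a time gave 0 to 3, 2 to 7, 2 to 5 and 1 to 5. In those fits 7.32% to 25.8%, 5.44% to 25.6%, 8.17% to 31.1% and 1.14% to 8.01% of all genes were called. Same-numbered libraries of G1C7 and G2C9 correlated at 0.62, -0.679 and -0.716, so the labels' numbers were not taken as a pairing. With a replicate block, the counts were 1, 2, 3 and 1 (all genes: 9.78%, 7.11%, 12.6% and 1.05%). Signs turned as follows. Without 1 library, Hoxa3 in G1C7 ranged from -0.0062 to 0.43, Hoxa4 in G1C7 from -0.015 to 0.12, Hoxa13 in G1C7 from -0.46 to 2.41 and Hoxa13 between the derivatives from -1.57 to 0.65. Without both libraries that stood apart, Hoxa3 in G1C7 was -0.0090, and Hoxa13 was -0.47 in G1C7 and -1.54 between the derivatives, where it was -0.61 with limma-voom and -0.18 with the block. The cause was not tested. No sign of Hoxa2, Hoxa5, Hoxa7 or Hoxa10 turned in these settings. Depth limits Hoxa9 to Hoxa13 and clusters B to D, where 3 read pairs over a group were the floor.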
